A study of Mus musculus with 6 samples.

Results

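The clustered protocadherins are 58 genes in 3 neighbouring arrays on mouse chromosome 18. They were taken as every RefSeq gene whose symbol starts with Pcdha, Pcdhb or Pcdhg followed by an isoform name and that lies between 36.9 and 37.9 Mb (build GRCm38), out of 49943 RefSeq genes on chromosomes 1 to 19, X and Y. The alpha array had 14 members (36930285 to 37188897), the beta array 22 (37264998 to 37521419) and the gamma array 22 (37661775 to 37841873). All peaks in this interval of 1 Mb were used, and merging the peaks of the 6 libraries wherever they shared 1 bp or more gave 23 consensus regions, out of 46780 in the genome.

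Clustered protocadherins are cell adhesion proteins of the cadherin family that meet their own kind across cell contacts. In the alpha and gamma arrays each gene start has its own large first exon, which is spliced to constant exons shared by the whole array, whereas beta genes consist of a single exon. Most isoforms are alternates, which are known to be chosen by individual neurons in different combinations, while the C-type isoforms (Pcdhac1, Pcdhac2, Pcdhgc3, Pcdhgc4 and Pcdhgc5) are known to be expressed more uniformly. Distal enhancers and the looping factor CTCF are known to act on promoter choice in these arrays, and gamma protocadherins are known for self-avoidance and survival of retinal neurons.

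ATAC-seq, which marks accessible DNA by where the transposase Tn5 can insert adapters, was run on embryonic mouse retina of strain C57BL/6 at stage E14.5. The 3 wild-type libraries came from Atoh7 +/+ animals and the 3 SE/SE libraries from Atoh7 SE/SE animals. SE stands for the shadow enhancer of Atoh7, a gene for a transcription factor of ganglion cell formation, and SE/SE animals carry the altered enhancer in both copies of the gene. The labels describe pairs of retinas and biological replicates, 3 per genotype, without saying whether a pair came from 1 embryo. Each value is a mean over all cell types of the retina. In such bulk samples, a peak carried by fewer cells and a weaker peak in each cell cannot be told apart. PCR cycles were 17, 18 and 19 in wild type and 15, 16 and 16 in SE/SE, so amplification and genotype cannot be told apart either.

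The lists held 27873 to 34797 peaks in wild-type and 39115 to 44242 in SE/SE, and their sequencing depth is unknown. The authors also deposited 1 joint list per genotype, with 104991 peaks for wild type and 120772 for SE/SE. As a check of the labels, 2 regions that end 10151 and 9118 bp before Atoh7 had a peak in 3 wild-type and 0 SE/SE libraries. Of 12 fixed markers of neural retina, 11 had a gene-end peak (no more than 1 kb from either end) in 6 of 6 libraries, and Six3 had one in 2 libraries of each genotype. A gene-end peak in 6 of 6 libraries was also found at 3 of 6 pigment epithelium, 2 of 6 lens, 1 of 6 endothelial, 1 of 6 microglia and blood and 4 of 6 mesenchyme markers. Over all 21887 protein-coding genes that share was 55.6%. The endothelial marker Cldn5 and the mesenchyme markers Foxc2 and Prrx1 had a gene-end peak in all 3 SE/SE libraries but in only 1 of wild type. The share of all genes with this pattern is not given here. Of the consensus regions not shared by all libraries, 95.7% were found in more SE/SE than wild-type libraries. Whether cells of these other types bear on the values given here was not tested. Among these markers of other cell types, Mitf, Dct, Pmel, Bfsp1, Mip, Kdr and Spi1 had a gene-end peak in 6 of 6 libraries, and Tyr, Rpe65, Cryaa, Pecam1, Cdh5, Ptprc and Cx3cr1 in 0 of 6.

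At gene starts, peaks in single libraries were concentrated on C-type isoforms. A start peak, meaning a peak within 1 kb of the lower-coordinate end where transcription of each member begins, was present in 6 of 6 libraries at 4 of the 58 members, Pcdhac1, Pcdhac2, Pcdhgc3 and Pcdhgc4. These are 4 of the 5 C-type isoforms, and Pcdhgc5 (start 37819546) had a start peak in 0 of 6 libraries and in neither joint list. Of the 53 alternate isoforms, 52 had none in any library, and Pcdhga12 had one in SE/SE 3 alone. In all, 6.90% of the members had a start peak in 6 of 6 libraries and 91.4% in none. Among 17492 protein-coding genes whose strand the RefSeq promoter table gives, those shares were 54.6% and 40.7%. No member (0 of 58) had a start peak in all 3 SE/SE and no wild-type libraries, a pattern of 0.715% of the other genes.

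**Figure D1:**
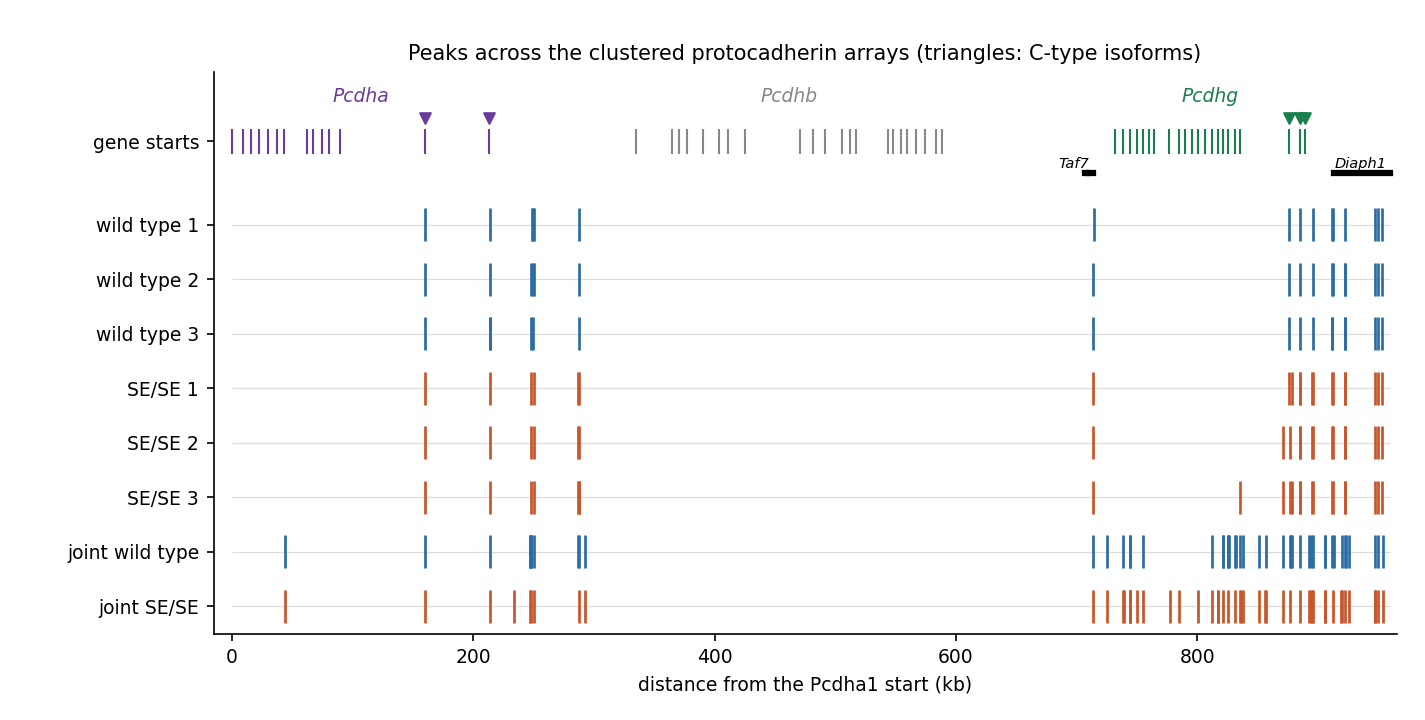
Positions of peaks in the 6 libraries and the 2 joint lists, in kb from the start of Pcdha1, under the starts of the 58 members (ticks), C-type isoforms (triangles) and the other protein-coding genes of the interval (bars). Each library has 0 peaks over the 22 beta starts, and the library peaks at gene starts lie at C-type isoforms except 1 peak at Pcdhga12 in SE/SE 3.

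Pcdhac2, the last first exon of the alpha array, had one of the 2 broad start peaks of the interval. Its region, 37143388 to 37144675, covered the start at 37143678. The strongest peak there had signal values of 500, 594 and 379 in wild type 1, 2 and 3 and of 1183, 1562 and 1338 in SE/SE 1, 2 and 3. The authors' signal value grows with peak width and has no stated scaling between libraries, so it was ranked only inside its own list. In those lists it stood at percentiles 67.2, 69.6 and 60.1 in wild type and 84.1, 88.0 and 85.5 in SE/SE. All 3 SE/SE percentiles lay above all 3 wild-type percentiles.

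Pcdhgc3, the first C-type isoform of the gamma array, carried the other broad start region (37805972 to 37807390, over the start at 37806410). Signal values were 605, 759 and 571 in wild type 1, 2 and 3, and 1038, 1391 and 1309 in SE/SE 1, 2 and 3. The corresponding percentiles were 71.6, 75.2 and 70.1 in wild type and 81.0, 85.5 and 85.0 in SE/SE, again without overlap of the genotypes. Its summits, the bases of highest signal, lay 49 to 60 bp before the annotated start in all 6 libraries.

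Pcdhac1 and Pcdhgc4 had narrower start peaks of middle rank. The Pcdhac1 region (37089815 to 37090076) ended 60 bp before the start at 37090136. Its percentiles were 43.9, 49.95 and 33.5 in wild type and 53.7, 59.2 and 56.1 in SE/SE, with SE/SE above wild type in each case. At Pcdhgc4 (start 37815079), the region from 37815236 to 37815509 began 157 bp after the start, with percentiles of 43.8, 45.3 and 41.3 in wild type and 58.4, 58.9 and 58.4 in SE/SE. A second Pcdhgc4 region, 37814995 to 37815122, covered the start and had a peak in all 3 SE/SE and in 0 wild-type libraries. Its peaks ranked low, at percentiles 8.76, 13.7 and 17.6 in SE/SE 1, 2 and 3. The lone alternate start peak, at Pcdhga12 (37765858 to 37765965), had a signal value of 23.3 in SE/SE 3, at percentile 2.32, against a lowest value of 20.0002 in that list.

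**Figure D2:**
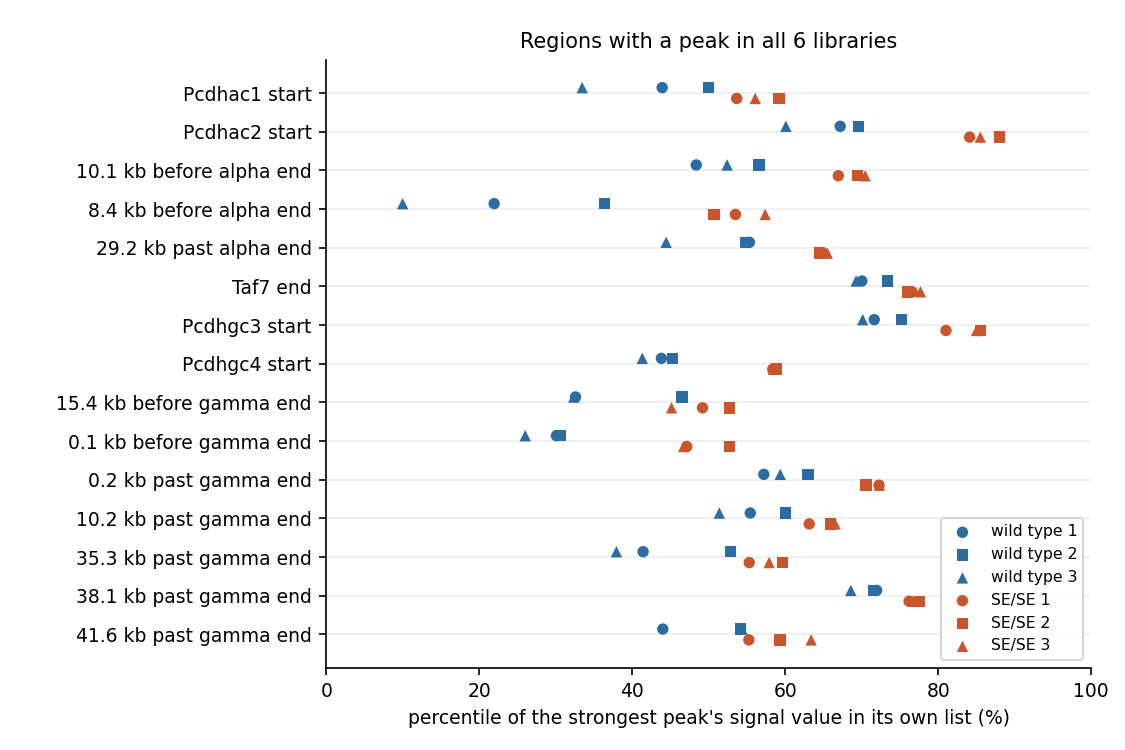
Percentile of the strongest peak's signal value within its own list (x axis, %) for the 15 regions found in every library, named by the gene start or by the distance to the shared 3' end of an array. Pcdhac2 and Pcdhgc3 starts reach percentiles above 80 in SE/SE, and the region 15.4 kb before the gamma end is the one where the genotypes overlap.

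Percentiles depend on list length, since longer lists add weak peaks below a given one. In the lists as deposited, 14 of the 15 regions shared by all libraries had all SE/SE percentiles above all wild-type ones, as did 75.9% of the 24370 shared regions of the genome, and 0 had the opposite (0.62% of shared regions). When each list was shortened to its 27873 strongest peaks, this held for 4 of 15, against 13.9% of shared regions, and the opposite for 1 of 15, against 17.2%. The 4 were the Pcdhac2 and Pcdhgc3 starts and the 2 distal regions inside the alpha array. At Pcdhac2 those percentiles were 63.1, 62.0 and 60.1 in wild type and 77.7, 81.6 and 77.0 in SE/SE, and at Pcdhgc3 68.1, 69.0 and 70.1 against 73.4, 77.8 and 76.2. At Pcdhac1 the genotypes overlapped, with 36.9, 37.5 and 33.5 in wild type and 35.0, 37.4 and 30.3 in SE/SE. The 1 region with wild type above was that 10.2 kb past the gamma end. Of the 4 with SE/SE above, 2 had been deposited as split peaks in some wild-type libraries. These were the second distal alpha region in wild type 1 and 2 and the Pcdhac2 region in wild type 3. Only the strongest piece was ranked, and the signal value grows with width.

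The 3 arrays differed in how their open regions were spaced. Neighbouring gene starts were a median of 7.44 kb apart in alpha (5.41 to 69.9 kb), 7.84 kb in beta (4.22 to 45.6 kb) and 5.33 kb in gamma (3.78 to 40.8 kb). Consensus regions numbered 4 over the 259 kb of alpha (1.55 per 100 kb), 0 over the 256 kb of beta and 9 over the 180 kb of gamma (5.00 per 100 kb). In alpha, all 4 regions lay at or after Pcdhac1, and the starts of Pcdha1 to Pcdha12 all fell in a stretch of 288 kb (36802020 to 37089814) without a peak in any library. From the Pcdha1 start onward this stretch measured 160 kb, and the rest lay before the array. Of the 46759 stretches between neighbouring consensus regions of the genome, 1348 were as long as the whole 288 kb. In gamma, the 18 alternate isoforms other than Pcdhga12 likewise had no start peak in any library, and 8 of the 9 regions lay in the last part of the array, from 37800924 onward.

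The beta array was without peaks. All 22 beta genes, from Pcdhb1 to Pcdhb22, and the mitochondrial carrier gene Slc25a2 lay in a stretch of 425 kb (37218494 to 37643906) with 0 peaks in 6 of 6 libraries. The joint lists left 420 kb of it free (37223282 to 37643741), with 0 peaks at any beta gene in either list. Of the 46759 stretches between neighbouring consensus regions of the genome, 681 (1.46%) were as long. A peak list gives no value below its threshold, so a peak was not detectable at this depth, which does not show closed chromatin. How reads matching several places were treated is not given, and beta coding exons resemble one another.

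Gamma alternates appeared in the joint lists, which hold many weaker peaks. In either joint list, 18 of 58 members (31.0%) had a start peak, against 65.1% of the other genes. Of the 53 members without a start peak in any library, 13 (24.5%) had one in a joint list, against 14.4% of the other genes of that kind. Apart from the C-type isoforms these were gamma alternates, with 1 exception, Pcdha7, whose peaks had their summits 526 bp (wild type) and 576 bp (SE/SE) after its start. Of the 19 gamma alternates, 8 had a start peak in both joint lists (Pcdhga2, Pcdhga3, Pcdhga4, Pcdhgb6, Pcdhgb7, Pcdhga11, Pcdhgb8 and Pcdhga12). Another 5 had one in SE/SE alone (Pcdhgb1, Pcdhga6, Pcdhga7, Pcdhgb5 and Pcdhga10), 0 in wild type alone and 6 in neither (Pcdhga1, Pcdhgb2, Pcdhga5, Pcdhgb4, Pcdhga8 and Pcdhga9). Over all 58 members, those 5 are 8.62%, and among the other genes 0.915% had a start peak in the joint SE/SE list alone and 0.269% in the wild-type list alone. Most of those 5 had weak peaks. In the joint SE/SE list, Pcdhgb1, Pcdhga6, Pcdhgb5 and Pcdhga10 stood at percentiles 13.8, 8.46, 11.7 and 13.6, and Pcdhga7 at 47.3. The part of list length in this contrast was not tested. RefSeq lists Pcdhgb8 as a transcribed pseudogene.

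Peaks at gamma alternates sat close to the annotated starts and ranked below those of C-type isoforms. In the joint SE/SE list, the strongest start peak of 12 of these 13 genes had its summit within 300 bp of the start, with a median offset of -13 bp (negative values lie before the start). Start peaks were taken within 1 kb to begin with, and the share of all genes with a summit this close is not given here. Pcdhgb6 had the highest signal value, 682 in wild type and 1140 in SE/SE, at percentiles 62.6 and 69.0. Pcdhga12 followed in wild type with 515 (percentile 56.9), and had 735 in SE/SE (percentile 60.2). Pcdhga11 had 3 separate wild-type peaks of 94 to 123 bp, the strongest with 60.5 at percentile 16.5, where SE/SE had a single peak of 665 bp with 851 at percentile 63.3. Since the signal value grows with width, these 2 percentiles cannot be compared as levels. Of the 8 genes with a peak in both lists, 7 had the higher percentile in SE/SE, and Pcdhga4 had 26.5 in wild type and 16.1 in SE/SE. The 7 include Pcdhga11, and also Pcdhgb7 and Pcdhgb8, each with 2 wild-type peaks against 1 in SE/SE. The joint SE/SE list is also the longer, and the share of all genes with this direction is not given here. Over the gamma alternates the median percentile was 35.5 in wild type (8 genes) and 46.0 in SE/SE (13 genes). The 4 C-type isoforms stood at 81.1 to 94.4 in wild type and 83.3 to 97.4 in SE/SE. Each joint list is a single list without replicates, so no test was possible. Of the 48 joint wild-type peaks in the interval, 0 lacked an overlap in the joint SE/SE list, against 6.28% of that list. Of the 51 joint SE/SE peaks 12 (23.5%) lacked one in wild type, against 22% of that list.

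**Figure D3:**
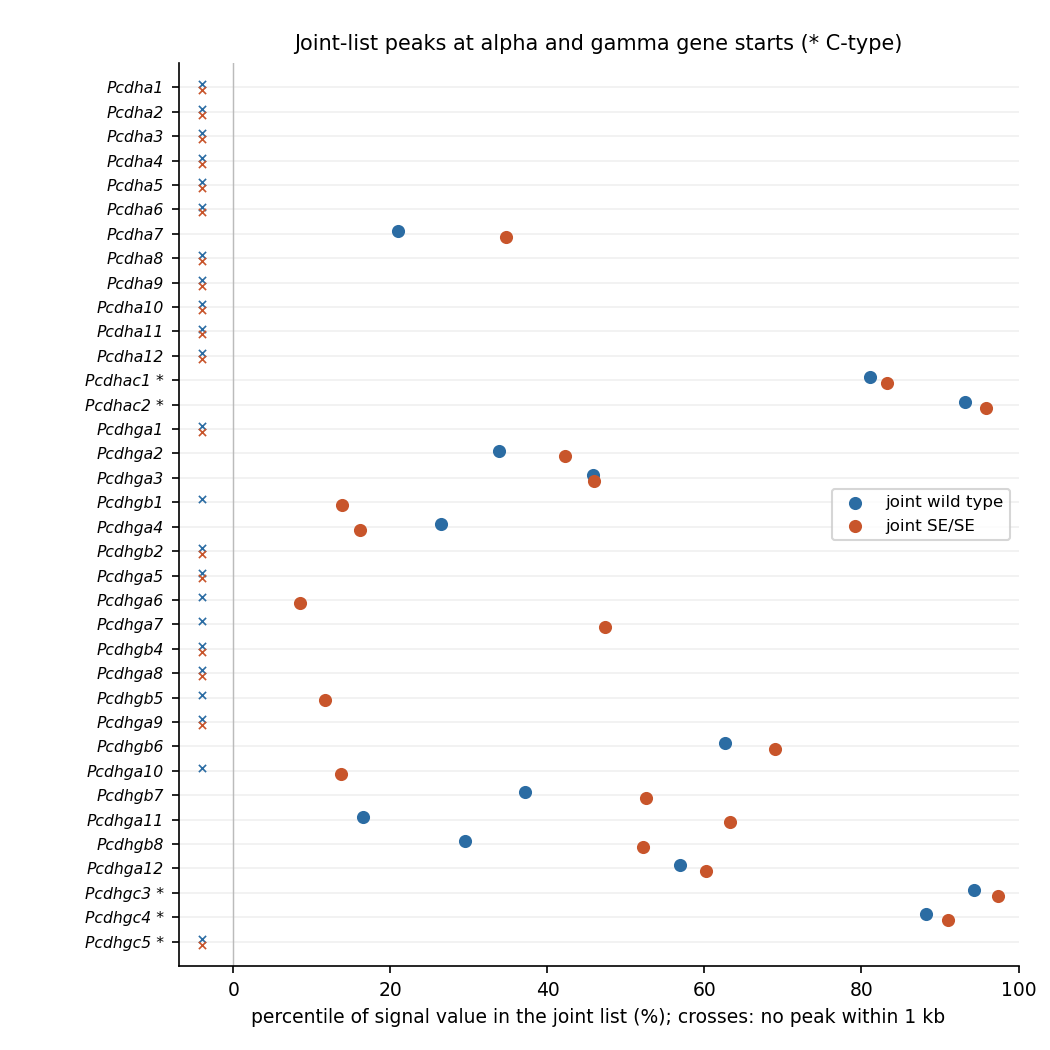
Percentile of the strongest peak within 1 kb of each alpha and gamma gene start in the joint wild-type and joint SE/SE list (x axis, %), with crosses where a list has no such peak and asterisks at C-type isoforms. Among the gamma alternates 8 have a peak in both lists and 5 in SE/SE alone, and the C-type isoforms other than Pcdhgc5 stand at percentiles of 81.1 or more.

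Distal regions, those over 1 kb from any member start and from the ends of other protein-coding genes, lay mainly around the 3' ends of the alpha and gamma arrays. Regions 10.1 and 8.36 kb before the alpha end (37178272 to 37178839 and 37180090 to 37180542), which lie after the Pcdhac2 start, had a peak in 6 of 6 libraries. The first stood at percentiles 48.4, 56.6 and 52.4 in wild type and 66.9, 69.4 and 70.5 in SE/SE. The strongest peak of the second stood at 21.9, 36.4 and 9.99 in wild type and 53.5, 50.7 and 57.4 in SE/SE, without overlap between genotypes. This region was split into peaks of 151 and 116 bp in wild type 1 and of 174 and 100 bp in wild type 2. Each SE/SE library had a single peak there. Since the signal value grows with width, these percentiles cannot be compared as levels.

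Past the alpha end, a further region at 37218146 to 37218493 (29.2 kb past it, 46.5 kb before Pcdhb1) was present in 6 of 6 libraries, at percentiles 55.3, 54.8 and 44.4 in wild type and 64.9, 64.5 and 65.5 in SE/SE. It was the last region before the peak-free beta array. Beside it, 37217365 to 37217559 had a peak in all 3 SE/SE and 0 wild-type libraries (percentiles 14.3, 25.3 and 21.2), and 37217899 to 37218014 in SE/SE 3 alone. Enhancers with established names are known near the alpha and gamma constant exons. Their positions were not in the files used here, so no region was matched to one.

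After the gamma array, the open regions continued into Diaph1, a formin gene that regulates actin and whose span starts at 37843601. The region at 37841385 to 37841753 ended 0.12 kb before the shared gamma 3' end, and that at 37842046 to 37842876 lay between this end and Diaph1. Both had a peak in 6 of 6 libraries. Inside Diaph1, 4 regions were present in 6 of 6 libraries, 10.2, 35.3, 38.1 and 41.6 kb past the gamma end. Another, 37852639 to 37852873, had a peak in 5 of 6, with none in wild type 1. Of the 4, the region at 37879960 to 37880514 ranked highest, at percentiles 71.9, 71.5 and 68.6 in wild type and 76.2, 77.6 and 76.7 in SE/SE. The remaining distal regions within gamma lay 5.34 kb before the Pcdhgc3 start (SE/SE 2 and 3), 1.83 kb after it (SE/SE 1 and 3), and 5.40 and 6.65 kb after the Pcdhgc5 start. Of these last, the first was found in 3 SE/SE and 0 wild-type libraries and the second in 6 of 6.

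Taf7, a gene for a general transcription factor subunit that lies between the beta and gamma arrays, served as a neighbour with an open gene end. Its region, 37643907 to 37644384, covered the gene's upper end at 37644204 and had a peak in 6 of 6 libraries, at percentiles 70.0, 73.4 and 69.3 in wild type and 76.6, 76.0 and 77.7 in SE/SE. These values were close to those of Pcdhgc3 in wild type and below them in SE/SE.

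The genotypes shared most of the interval. Of its 23 regions, 15 (65.2%) had a peak in 6 of 6 libraries, against 52.1% of all consensus regions. SE/SE-specific regions, with a peak in 3 SE/SE and 0 wild-type libraries, numbered 3 (13.04%), against 8.23% of all regions. Wild-type-specific regions numbered 0, against 0.0321%. The 8 regions not shared by all libraries were each found in more SE/SE than wild-type libraries, as were 95.7% of the regions not shared by all libraries over the genome. All 23 regions overlapped a peak of both joint lists. With equal list lengths the number of SE/SE-specific regions was 0.

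**Figure D4:**
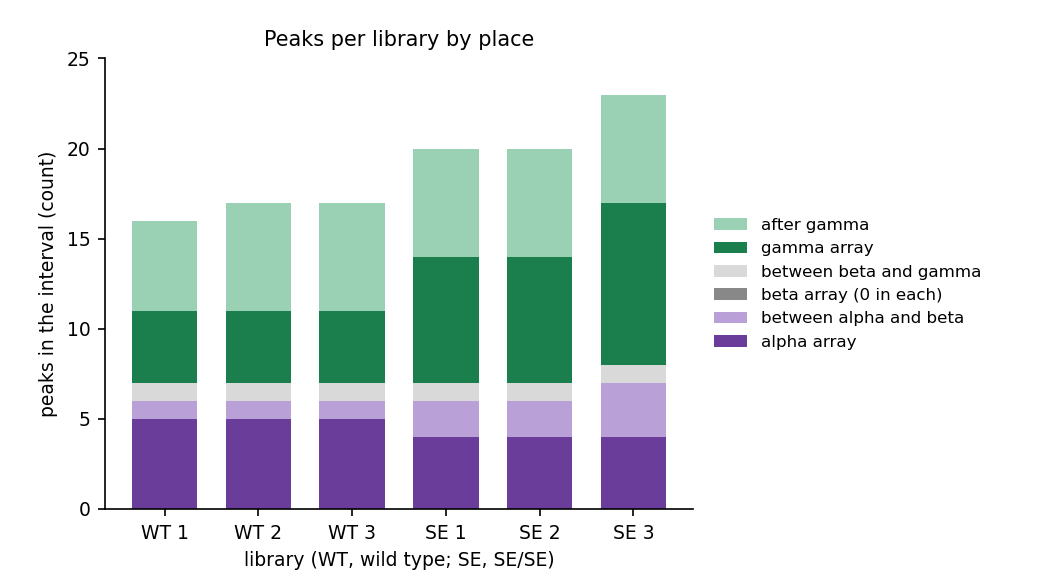
Number of peaks in the interval per library (y axis, count), stacked by place relative to the 3 arrays. Wild-type libraries have 16 or 17 peaks and SE/SE libraries 20 to 23, and the gamma array holds 4 in each wild-type and 7 to 9 in each SE/SE library.

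The longer SE/SE lists held more peaks in the interval. Wild type 1, 2 and 3 had 16, 17 and 17 peaks there and SE/SE 1, 2 and 3 had 20, 20 and 23, that is 16.7 ± 0.577 and 21.0 ± 1.73 (SD, n = 3 each). This difference of 4.33 peaks had an exact two-sided permutation p = 0.1, the smallest that 3 against 3 allows. As a share of each library's peaks, the interval held 0.0511, 0.0489 and 0.0610% in wild type and 0.0511, 0.0468 and 0.0520% in SE/SE, and the groups overlapped (exact permutation p = 0.6). Among peaks with a signal value of at least 100 the mean share was 0.0622% in wild type and 0.0521% in SE/SE, with each wild-type library above each SE/SE library (exact permutation p = 0.1). With equal list lengths the mean was 16.0 peaks in wild type and 15.3 in SE/SE (exact permutation p = 0.7), so the count of peaks turned in direction. Regions split into 2 peaks enter that turn. At this length wild type 1 still held both pieces of the second distal alpha region, and wild type 3 both pieces of the Pcdhac2 region. Each SE/SE library had a single peak at either region.

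By place, the gamma array held 4, 4 and 4 peaks in wild type and 7, 7 and 9 in SE/SE (exact permutation p = 0.1). With equal list lengths each of the 6 libraries held 4, a difference of 0 (exact permutation p = 1). The alpha array held 5 in each wild-type and 4 in each SE/SE library, because the second distal alpha region or the Pcdhac2 region was split into 2 peaks in wild type. Distal peaks numbered 11, 12 and 11 in wild type and 13, 13 and 15 in SE/SE, a difference of 2.33 (exact permutation p = 0.1), which with equal list lengths was -1.33 (exact permutation p = 0.2). These counts do not cover the same regions. The peak between the gamma end and Diaph1 was distal in each wild-type library. In each SE/SE library it was wider, came within 1 kb of Diaph1 and was not counted as distal. The split distal alpha region also counted as 2 distal peaks in wild type 1 and 2 as deposited. Members with a start peak numbered 4 in each wild-type library and 4, 4 and 5 in SE/SE (exact permutation p = 1.0).

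Peaks at shared regions were wider in SE/SE. The bases covered in the interval were 5200, 6060 and 5317 in wild type and 7795, 8754 and 9043 in SE/SE, a ratio of means of 1.54 (exact permutation p = 0.1). All 3 SE/SE values lay above all wild-type values. With equal list lengths the means were 5443 bp in wild type and 7712 bp in SE/SE (exact permutation p = 0.1). Shortening a list drops whole peaks and leaves the width of the others as deposited. At 12 of the 15 shared regions (80.0%) each SE/SE library covered more bases than each wild-type library, against 63.4% of shared regions in the genome, and the opposite occurred at 0, against 0.238%. The median ratio of SE/SE to wild-type width was 1.19 in the interval and 1.19 over all shared regions.

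The Pcdhgc3 start and the region past the gamma end widened most. At Pcdhgc3, peaks covered 479, 746 and 499 bp in wild type 1, 2 and 3 and 915, 1419 and 1346 bp in SE/SE 1, 2 and 3, a ratio of 2.13. Between the gamma end and Diaph1, they covered 367, 385 and 379 bp in wild type and 800, 829 and 819 bp in SE/SE, a ratio of 2.16. The second distal alpha region covered 267, 274 and 141 bp and 442, 426 and 453 bp, a ratio of 1.94. Pcdhac2 covered 926, 949 and 834 bp in wild type and 1005, 1266 and 1150 bp in SE/SE, a ratio of 1.26. Each of these had an exact permutation p = 0.1, the smallest possible here. The 3 regions whose widths overlapped between genotypes were those 15.4 kb before and 35.3 and 41.6 kb past the gamma end. List length and the number of PCR cycles also separate the genotypes. The part of PCR cycles in these widths was not tested, nor was that of list length in the width of single regions.

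**Figure D5:**
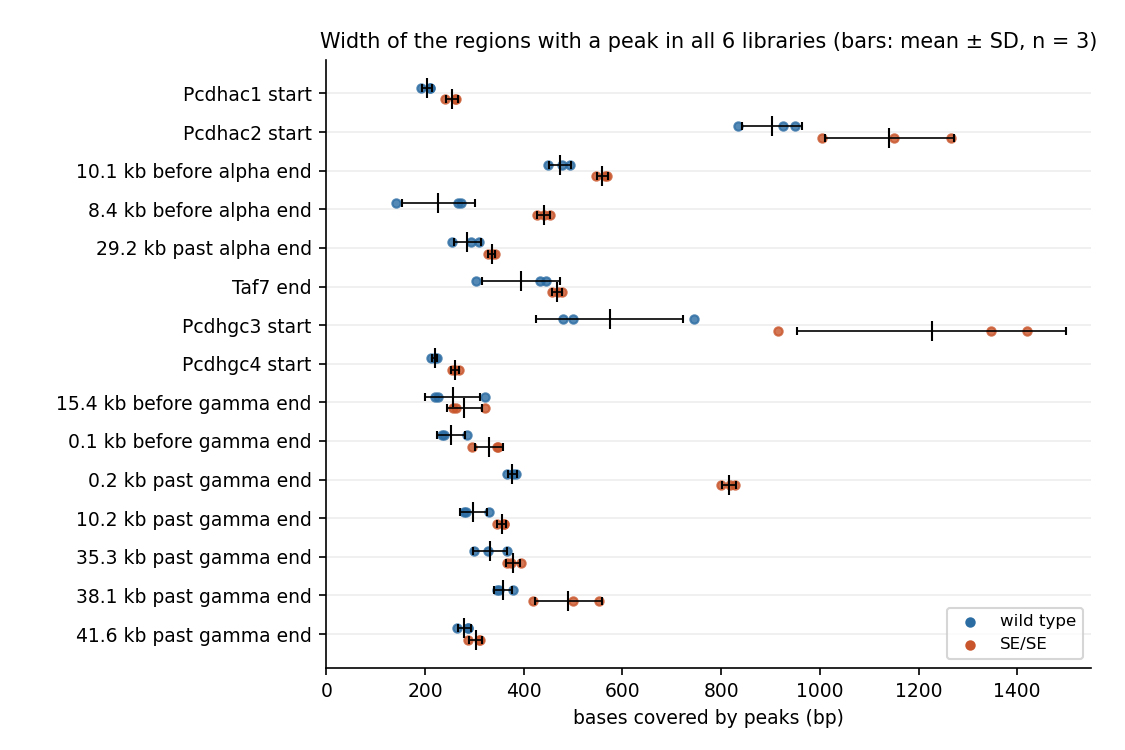
Bases covered by peaks (x axis, bp) at the 15 regions found in every library, with 1 point per library and the mean ± SD of each genotype (n = 3). SE/SE points lie wholly above wild-type points at 12 regions, with the largest ratios at the Pcdhgc3 start (2.13) and just past the gamma end (2.16).

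Most related genes outside the arrays had a peak at a gene end. Among 12 non-clustered protocadherins, which are single genes elsewhere in the genome, 10 had a gene-end peak in 6 of 6 libraries, among them Pcdh1, Pcdh7, Pcdh8 and Pcdh10, and Pcdh9 and Pcdh12 had none. Over all 21887 protein-coding genes this share was 55.6%, with 38.9% in none and 0.864% in all 3 SE/SE libraries alone. Of 19 matched genes linked to promoter choice in the arrays, 15 had one in 6 of 6 libraries, among them Ctcf and the cohesin subunit genes Smc1a and Smc3, while Rad21, Stag1, Nipbl and Dnmt3a had none. Of 17 partner, effector and other adhesion genes, 14 had one in 6 of 6 libraries, including the kinase genes Fyn and Ptk2, and Ptk2b, Axin1 and Dscaml1 had none. None of these 48 genes was found in only some libraries, and a start inside the longest annotated span is missed by this measure.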

How the data were processed

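ATAC-seq peak lists of 6 libraries (3 wild type, 3 SE/SE) and 2 joint lists, 1 per genotype, were used. Nuclei of some 100000 cells went into transposition and DNA equivalent to 50000 into PCR, per the labels' protocols. Genrich 0.5, BWA, bedtools 2.27.0, limma and cutadapt stand in the submitters' processing notes without roles, with the build GRCm38 (mm10). Trimming, the Tn5 shift, treatment of duplicates and multiply matching reads, and how libraries were joined are not given in the sources used here. For a peak, the deposited lists hold the authors' signal value, a score and a −log10 p-value. The score and −log10 p-value, as deposited, were not used for comparisons. No read counts were used, so depth is unknown and a missing peak may lie just under the threshold.

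Peaks on chromosomes 1 to 19, X and Y were merged where they shared 1 bp or more, and positions count from 1. A percentile is the share of peaks in a list with a signal value no higher. Member starts are the lower-coordinate gene ends of the RefSeq table for GRCm38.p6, since all 3 arrays are transcribed toward higher coordinates. The alpha and gamma members share their upper ends to within 1240 and 1384 bp. Several models begin at or near the coding start. The read-through genes Gm37013, Gm38666 and Gm38667, which join alpha and gamma exons, were not counted as members or as other genes. The background of gene starts covers the 17492 protein-coding genes with a strand in the RefSeq promoter table, and fixed lists were matched by symbol to either gene end (Zfp274 had no match). The planned count of promoter motifs was not made, as no promoter of chromosome 18 was used.

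Values per library were compared by exact two-sided permutation over the 20 assignments of 3 against 3. Alternatives were a signal value of at least 100, equal list lengths (27873 peaks), the span of the members, start distances of 500 bp and 2 kb, an overlap of 50%, regions from the joint lists, each library left out, and the replicate number as a block. The members, lists and rules were chosen with earlier results of these data known. All 58 members could be named, with the other genes of the interval, Atoh7 and up to 4 examples per fixed list or the members without a peak. Calculations used Python 3.11.15, numpy 2.4.6, pandas 2.3.3 and matplotlib 3.10.9 and were tested on simulated data.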

Additional observations from a re-analysis of the deposited data

How the results depend on the processing

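Of 155 alternative values, 143 did not turn in direction, a difference of 0 included, or stayed within 1.5 times the count. Values with the replicate block were among the 143 in advance, since a block leaves the difference itself unchanged. Differences in gamma array peaks were instead required to shift by less than the SD of SE/SE, which neither alternative met. The alternatives leaving out wild type 2 and SE/SE 1 together, and those on widths and on gamma array peaks, were chosen after seeing the data. With equal list lengths the SE/SE minus wild-type difference was -0.667 for peaks in the interval and -1.33 for distal peaks, and SE/SE-specific regions numbered 0. The first difference includes regions split into 2 peaks in wild type 1 and 3. The second includes the split in wild type 1 and the region before Diaph1, classed as distal in wild type alone. Bases covered kept a difference of 2270 bp with equal list lengths and of 2733 bp with a signal value of at least 100. The difference of 3.67 peaks in the gamma array became 0 with equal list lengths and 1 with a signal value of at least 100. SE/SE-specific regions numbered 1 with a signal value of at least 100 and 0 with regions from the joint lists, which gave 49 regions in place of 23. The interval's share of a library's peaks differed by -0.0101 percentage points with a signal value of at least 100, by 0.00027 percentage points over the span of the members and by -0.00604 to 2.36e-05 when 1 library was left out. The turn in direction came without wild type 3. The start peak at Pcdhga12 was found in 0 libraries under the stricter signal value or equal list lengths. The 4 members with a start peak in all libraries remained 4 in number under every alternative run. Leaving out 1 library moved SE/SE-specific regions to between 3 and 4 and regions wider in every SE/SE library to between 12 and 14.

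The labels give both genotypes replicate numbers without saying that a number marks a shared litter or day. With that replicate block, an exact sign-flip test, which cannot give a p under 0.25, gave the same difference of 4.33 peaks with p = 0.25. Same-numbered libraries had deviations from their genotype's mean presence that correlated at 0.00225, -0.0478 and 0.217 over 18546 regions. Between libraries of unlike number, these ran from -0.282 (wild type 3 with SE/SE 1) to 0.249 (wild type 2 with SE/SE 1). The numbers were therefore not taken to pair the libraries. Depth limits all absences reported here, since a list holds no value below its threshold.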

Other observations

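Across the genome, few stretches without a peak held as many genes as the beta array. Of 46759 stretches between neighbouring consensus regions, 37 held 23 or more protein-coding genes, the number in the stretch with the 22 beta protocadherins and Slc25a2. By their commonest symbol stem, 19 of these 37 were olfactory receptor (Olfr) and 4 vomeronasal receptor (Vmn) clusters, and others held defensin (Defa), taste receptor (Tas) or keratin-associated (Krtap) genes. The beta stretch was the only 1 of the 37 named for protocadherins, and its own gene count set the cut, so its place among them was fixed in advance. It is also the shortest of the 37, at 425 kb. The whole interval held 23 consensus regions, more than 71.3% of 2711 tiled windows of 1 Mb, whose median was 15. The 2 windows with at least as many protein-coding genes as the interval (63) had a median of 56.5 regions, and 0 of them had fewer than 23. That count of 63 takes in the 3 read-through genes, which were left out elsewhere.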
